A study of Rattus norvegicus with 28 samples.

Results

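The genes followed here were 8 of the cytosolic ribosome in rat muscle, out of the 32883 genes in the count files. The 8 were Rpl23a, Rpl35, Rpl4, Rplp0 and Rplp1 of the large subunit and Rps20, Rps25 and Rpsa of the small subunit. Each was found by the Ensembl identifier that a supplementary gene list of the study pairs with its symbol. That list names 1998 genes and orders them by their p-value between VDR-OE muscles and their controls, so the members entered through that contrast and their values in it are a description. The VDR-KD arm played no part in the list. Of 79 cytosolic ribosomal protein genes looked for, these were the only 8 with a symbol, and the other members of the family are not analysed here.

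The study used in vivo electrotransfer, in which electric pulses bring injected DNA into muscle fibres, to change the vitamin D receptor (VDR) in the tibialis anterior of rats. There were 4 groups of 7 muscles (28 muscles of 14 male Wistar rats), and both legs of each rat were sequenced. In the VDR-OE arm, the right leg received pCAGGS-mVDR, a plasmid carrying mouse VDR, and the left leg (VDR-OE control) received the empty pCAGGS plasmid. In the VDR-KD arm, whose right legs the labels call VDR knock-out, the right leg received a short hairpin RNA against VDR and the left leg (VDR-KD control) a scrambled hairpin. The rats were of one age at the start, were fasted overnight, and had their muscles collected some days after a single electrotransfer. The methods name another plasmid backbone (pCMV6) than the labels. Electrotransfer reaches only part of the fibres, and a whole muscle holds other cell types as well. In such bulk samples, fewer cells of a type and less RNA per cell cannot be told apart.

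Total counts ranged from 36684220 to 46312167 per library, the scale factors from 0.741 to 1.41, and the share of counts held by the 10 highest genes from 15.4% to 30.6%. None of these passed an exact paired permutation test between the legs of an arm, two-sided (smallest p = 0.0625, n = 7 rats). Vdr, the targeted gene, lay between 1.92 and 6.64 CPM (counts scaled to the effective size of each library) in the VDR-OE controls and between 5.45 and 5940 CPM in the VDR-OE legs. It was higher in 6 of 7 rats (reads of the mouse plasmid count here as far as they match the rat gene). The exception was rat 419, with 5.71 CPM in the control leg and 5.45 CPM in the library labelled VDR-OE. In the other arm, Vdr was 4.16 ± 2.51 CPM in the controls and 3.24 ± 1.6 CPM in the legs labelled VDR-KD (SD, n = 7). That log2 difference of -0.26 ± 0.40 (SE) had an adjusted p = 0.839 by edgeR's quasi-likelihood test, and Vdr was lower in only 4 of 7 rats. The counts therefore did not show the knock-down that the labels name. None of the 8 fixed markers of muscle fibres has a symbol in the list, so the tissue label was not checked against them.

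A ribosome is built from ribosomal RNA and about equal amounts of each ribosomal protein, and its production sets how much protein a growing muscle fibre can make. The messages of ribosomal proteins are among the most abundant of a cell, and many begin with a C followed by a run of pyrimidines, the terminal oligopyrimidine (TOP) motif. This motif ties their translation to mTOR, the kinase that couples nutrients and growth to protein synthesis. RPLP0 and RPLP1 form the stalk that engages translation factors, RPL4 lines the exit tunnel, and RPL23A and RPL35 sit around the tunnel exit. RPS20 and RPS25 belong to the head of the small subunit, and RPSA binds on its outer side.

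The start regions of 5 of the 8 members are given by RefSeq (build GRCr8) and are shown because the TOP motif is what the messages of this family are known for. Each sequence runs 5′ to 3′ with 40 bases before the annotated start and 15 from it onward, and capitals mark the unbroken run of C or T across the start.
Rpl35: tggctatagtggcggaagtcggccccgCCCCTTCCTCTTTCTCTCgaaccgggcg
Rpl4: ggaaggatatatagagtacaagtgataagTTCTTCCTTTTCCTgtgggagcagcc
Rplp0: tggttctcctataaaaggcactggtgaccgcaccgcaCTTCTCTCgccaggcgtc
Rplp1: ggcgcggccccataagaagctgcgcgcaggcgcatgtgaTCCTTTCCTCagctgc
Rpsa: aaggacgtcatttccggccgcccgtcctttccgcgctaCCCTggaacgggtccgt
On GRCr8 these lie at chr3:43165907-43165961 (minus strand) for Rpl35, chr8:73566437-73566491 (plus strand) for Rpl4, chr12:46718376-46718430 (minus strand) for Rplp0, chr8:71290858-71290912 (minus strand) for Rplp1 and chr8:128728839-128728893 (plus strand) for Rpsa. The counts were made on an earlier rat build (version 6.0), and no coordinate was carried between the builds.

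All 5 messages start at a C, as do 54.7% of the annotated starts of the ribosomal protein list and 24.1% of all starts. In Rpl35, Rplp0 and Rplp1 that C is followed by 4 or more pyrimidines. In Rpl4 and Rpsa the run from the start onward is only 3 and 2 bases long. A C with 4 or more pyrimidines after it stands at 24 of 64 annotated starts of the ribosomal protein list (37.5%) and at 2.63% of all 33469 starts. Within the whole RefSeq windows around each start, the letters CGGAAG (the core bound by ETS factors, either strand) occur in Rpl35, Rpl4, Rplp1 and Rpsa. They occur in 54.7% of the windows of the ribosomal protein list and in 16.6% of all windows. GGGCGG (the GC box, either strand) occurs in Rpl35, Rplp0, Rplp1 and Rpsa, in 59.4% of the list's windows and in 33.1% of all windows. AAGATGG, the YY1 core, is in none of the 5, in 17.2% of the list's windows and in 7.01% of all. The DR3 vitamin D response element is in 0 of the 5 and 0.35% of all windows. A match is a description of the letters and no evidence of binding.

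Between the VDR-OE legs and the empty-plasmid legs of the same rats, 3 of the 8 genes (Rpl35, Rplp1 and Rps25) passed the test and were lower. The log2 differences of all 8 were below 0. They lay between -0.36 and -0.24 except for Rps20, at -0.62, which had few reads. The members' symbols come from a list ranked by p in this contrast. In mean level, the VDR-OE controls were the highest and the VDR-OE legs the lowest of the 4 groups for each of the 8 genes. The arm labelled VDR-KD lay between them, with no member called. Levels below are in CPM after scaling all 28 libraries together by the trimmed mean of M-values (TMM). They are not per transcript length, so they are compared between groups and not between genes.

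**Figure D1:**
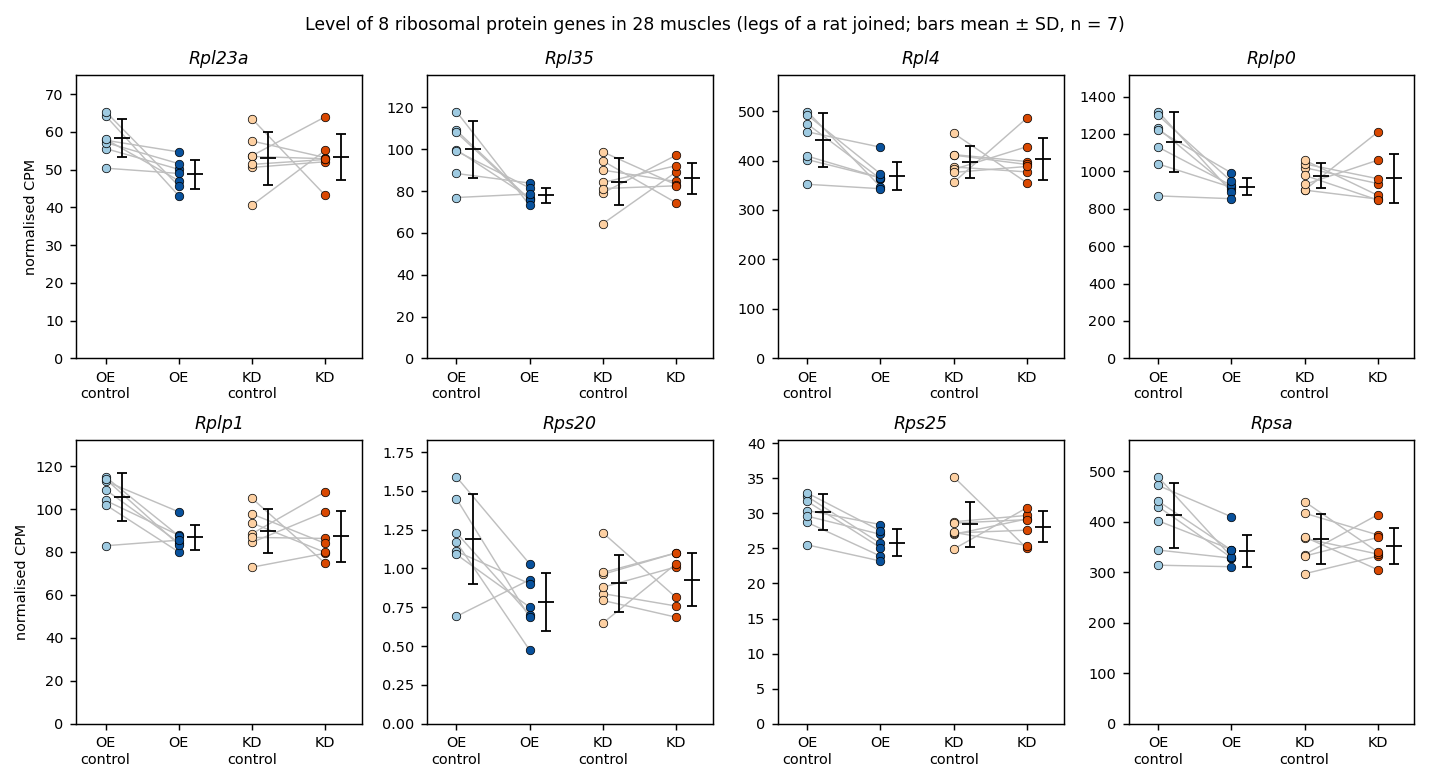
Normalised level (CPM, linear axis from 0) of each gene in the 28 muscles, by group, with the legs of a rat joined by a line and the mean ± SD of 7 muscles beside the points. The VDR-OE control points reach highest except for Rps25, where a VDR-KD control muscle had 35.2 CPM against at most 32.9 CPM. The VDR-OE points cluster low, with Rplp0 at 919 ± 43.6 CPM against 1160 ± 161 CPM in their controls. The lines of the VDR-KD arm run in both directions.

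Of the stalk proteins, Rplp0 ranged from 869 over a median of 1220 to 1320 CPM in the VDR-OE controls and from 854 over 915 to 992 CPM in the VDR-OE legs. The VDR-KD controls spanned 900 to 1060 CPM (median 979) and the VDR-KD legs 847 to 1210 CPM (median 935). Only rat 422 among the VDR-OE controls fell within the range of the VDR-OE legs, and the level dropped in 7 of 7 rats. Rplp1 ranged from 82.9 over 109 to 115 CPM in the VDR-OE controls and from 80 over 85.5 to 98.7 CPM in the VDR-OE legs. Again the control leg of rat 422 was the one that overlapped. In the VDR-KD arm the medians were 88.5 CPM for the control legs (72.9 to 105) and 84 CPM for the treated legs (74.7 to 108).

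Among the proteins of the exit tunnel, Rpl35 ranged from 76.9 over 99.7 to 118 CPM in the VDR-OE controls and from 73.1 over 76.8 to 83.8 CPM in the VDR-OE legs. Its VDR-OE legs were the least variable of the 4 groups, with a coefficient of variation of 4.67% against 13.8% in their controls. The VDR-KD controls had a median of 84.1 CPM (64.4 to 98.7) and the VDR-KD legs one of 84.6 CPM (74.4 to 97.1). Rpl23a had a median of 57.8 CPM (50.4 to 65.4) in the VDR-OE controls and of 49 CPM (43.1 to 54.7) in the VDR-OE legs. Its VDR-KD medians were nearly equal, 53.5 CPM (40.6 to 63.5) in the controls and 52.9 CPM (43.2 to 64) in the treated legs. Rpl4 had a median of 458 CPM (352 to 499) in the VDR-OE controls and 365 CPM (343 to 427) in the VDR-OE legs. In the VDR-KD arm its medians were 387 CPM (356 to 455) and 392 CPM (355 to 486).

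In the small subunit, Rps25 had a median of 30.4 CPM (25.5 to 32.9) in the VDR-OE controls and 25.7 CPM (23.2 to 28.4) in the VDR-OE legs. The VDR-KD arm gave 27.3 CPM (24.9 to 35.2) and 29.1 CPM (25 to 30.8). Rpsa, which also serves as a laminin receptor, had a median of 430 CPM (314 to 489) in the VDR-OE controls and 331 CPM (311 to 410) in the VDR-OE legs. The VDR-KD medians of Rpsa were 367 CPM (297 to 440) and 340 CPM (305 to 414). Rps20 stood apart with only 22 to 79 reads per library. Its medians were 1.17 CPM (0.691 to 1.59) and 0.751 CPM (0.474 to 1.03) in the VDR-OE arm and 0.879 CPM (0.648 to 1.23) and 1.01 CPM (0.686 to 1.1) in the VDR-KD arm. Ribosomal protein genes have many near-identical processed copies, and how reads shared between copies were counted is not given in the sources used here. The levels, and that of Rps20 above all, are uncertain in this respect. Whether the identifier named Rps20 stands for the main gene or for a copy was not checked.

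Ordered by mean, the groups ran from VDR-OE control at the top to VDR-OE at the bottom for every gene, with the VDR-KD arm's legs in between in either order. The members were named through the contrast of VDR-OE with its control, and how many of all genes have this order was not counted. For Rplp1 the last step was 0.06 SD, from 87.3 CPM in VDR-KD to 86.7 CPM in VDR-OE. By median its VDR-KD legs were lower (84 against 85.5 CPM). The ranges overlapped in all 48 pairs of groups. Of 24 steps between neighbouring groups, 19 were no larger than 1 SD (the root mean square of both groups' SDs). The 5 larger steps were those from the VDR-OE control down to the next group for Rpl35, Rplp0, Rplp1 and Rps20, and from VDR-KD down to VDR-OE for Rps25. The spread also differed. The median SD of the members' log2 levels was 0.105 in the VDR-OE legs and 0.197 in their controls, against 0.239 and 0.277 over all 15112 genes. In the VDR-KD legs it was 0.156 and in their controls 0.182, against 0.366 and 0.285 over all genes. The members' SD was thus below that of all genes in each of the 4 groups. This difference in spread was not tested.

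Paired by rat, 3 of the 8 genes passed an adjusted p of 0.05 in VDR-OE against control by edgeR's quasi-likelihood test, all of them lower. Over all 14526 genes tested, 3.06% were called lower and 7.14% in either direction. The 3 were Rpl35 (log2 difference -0.36 ± 0.09 SE, adjusted p = 0.0488), Rplp1 (-0.29 ± 0.07, 0.0452) and Rps25 (-0.24 ± 0.06, 0.041). Rpl23a, Rplp0, Rpl4, Rpsa and Rps20 had log2 differences of -0.27, -0.34, -0.26, -0.27 and -0.62 and adjusted p-values from 0.0622 to 0.089. The members' median was -0.28, against -0.003 over all genes. Since the list of symbols was drawn by p in this contrast, the unadjusted p was under 0.05 for all 8, as for 99.7% of the 1880 named genes tested and 31.4% of all genes. Of the named genes, 37.1% were below 0, 50.1% were called and 21.5% were called lower.

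The count of 3 depended on the fit. EdgeR's likelihood ratio test, the kind the study's methods name, called 6 (15.6% of all genes in either direction). DESeq2 called 7 and the fit without the pairing of legs 5, with 2767 and 887 of all 14526 genes called. With the samples of both arms in one fit, with library size as the only scaling or without a filter on low counts, 0 were called. Over all genes these fits called 229, 4 and 797. Leaving out rat 416 gave 6 calls, with 4768 of all 14363 genes called. Leaving out rat 422 gave 1 (Rplp1), with 416 of all 14397 genes called. Without any one of the rats 417, 418, 419, 420 and 421 there were 0, and 0 to 209 over all genes. All 8 differences were below 0 in each of these fits. Without rat 419, whose Vdr did not rise, the members' median was -0.29.

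**Figure D2:**
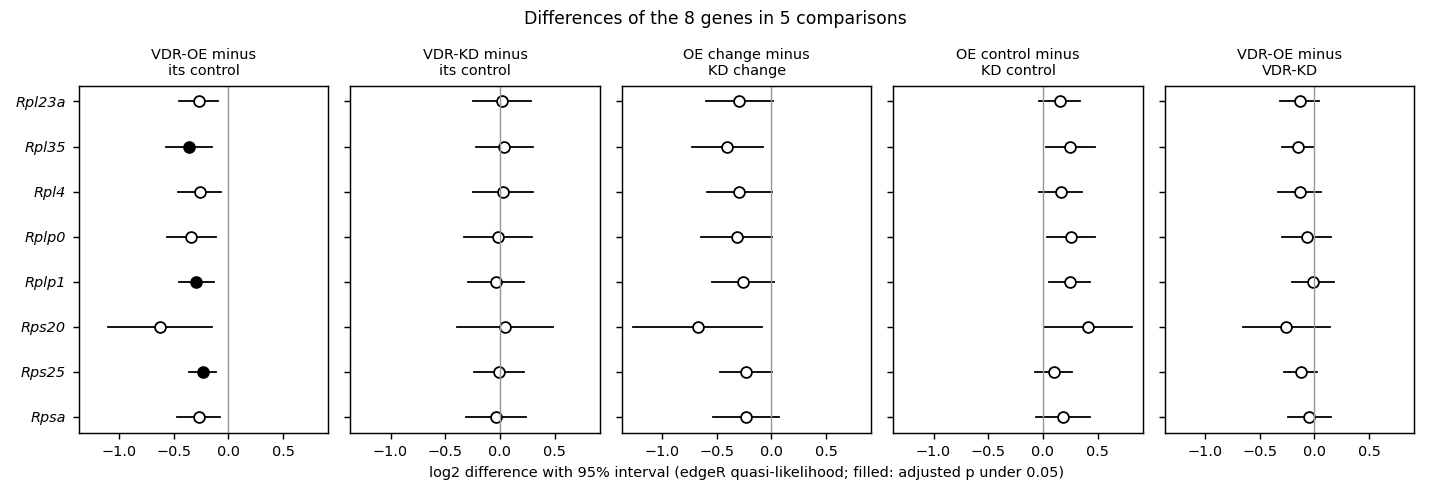
Log2 difference (horizontal axis) of each gene with its 95% interval in 5 comparisons, with filled points where the adjusted p was under 0.05 by edgeR's quasi-likelihood test. In the first panel all 8 points lie below 0 and 3 are filled (Rpl35, Rplp1 and Rps25), whereas the second panel centres on 0 with values from -0.04 to 0.05.

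Within single rats the ratio of the right over the left leg was below 0 in 7 of 7 rats for Rpl23a, Rpl4, Rplp0, Rps25 and Rpsa, and in 6 of 7 for Rpl35, Rplp1 and Rps20. A fall in 7 of 7 rats was seen for 5.09% of all genes tested. The members' symbols come from the list ranked by p in this contrast, which favours genes that change alike in most rats. The members' count is therefore a description, and the share among the named genes was not counted. With scale factors from the 14 muscles of the arm alone, Rpl35 and Rplp1 were lower in 7 of 7 rats too, because rat 422, the exception, had ratios close to 0. Averaged over the 8 genes, the log2 ratio was -0.43 in rat 416, -0.08 in 417, -0.30 in 418, -0.36 in 419, -0.53 in 420, -0.43 in 421 and -0.09 in 422. The smallest drops thus belonged to rats 417 and 422, whose VDR-OE legs held the most Vdr (3670 and 5940 CPM). In this mean of 8 genes, the drop in rat 419, with no rise in Vdr, was the median of the 7. The mean includes Rps20, whose log2 ratio rests on few reads. It was -1.287 in rat 419 (37 reads in the control leg, 22 in the VDR-OE leg) and 0.418 in rat 417 (23 and 34 reads). The place of rat 419 therefore leans on Rps20. Across the 7 rats of the VDR-OE arm, Pearson's r between the Vdr ratio and a member's ratio ran from -0.54 to 0.60 and Spearman's rho from -0.50 to 0.68. In the VDR-KD arm r ran from -0.39 to 0.08 and rho from -0.11 to 0.11. None of these 16 relations passed (exact permutation, smallest adjusted p = 0.992 for Pearson and 1.0 for Spearman). Without the 2 rats farthest from the median Vdr ratio, r ran from 0.11 to 0.99 over 5 rats in the VDR-OE arm and from -0.51 to 0.81 in the other.

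**Figure D3:**
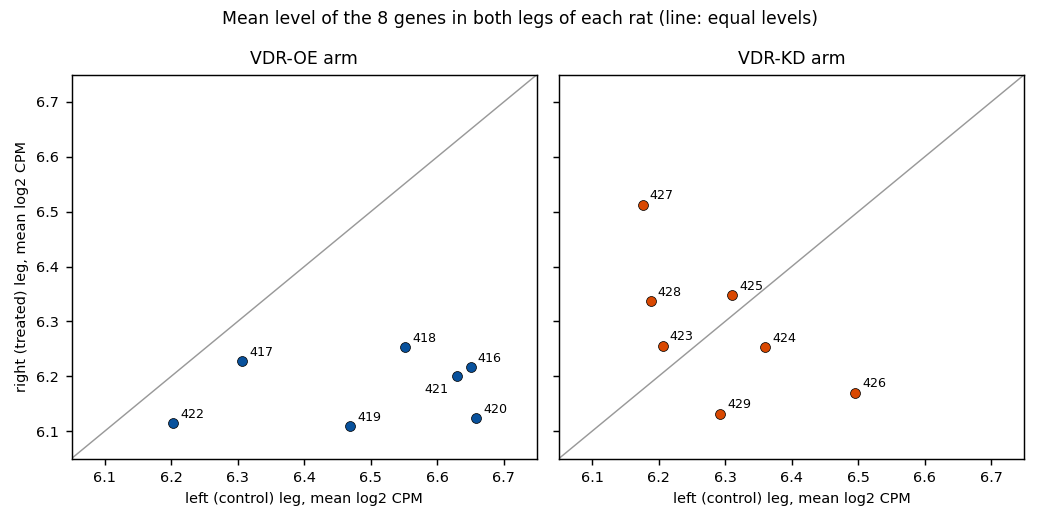
Mean log2 CPM of the 8 genes in the left leg (horizontal axis) and in the right leg (vertical axis) of each rat, labelled by rat number, with a line of equal levels. All 7 rats of the VDR-OE arm lie under the line, their right legs within 6.11 to 6.25 while their left legs run from 6.20 to 6.66, and the 7 rats of the VDR-KD arm lie on both sides.

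The right legs of the VDR-OE arm thus spanned a narrower range than the left legs. The lowest control legs were those of rats 422 (6.20) and 417 (6.31), which also had the smallest drops. A drop is the right level minus the left, so it contains the control leg's level and is not independent of it. Between the left and the right leg of a rat, a member's level correlated with r from -0.66 to 0.64 and rho from -0.86 to 0.64 in the VDR-OE arm, and with r from -0.79 to -0.01 and rho from -0.57 to 0.32 in the VDR-KD arm. None of the 16 relations passed after adjustment (exact permutation, n = 7, smallest adjusted p = 0.426 for Pearson and 0.381 for Spearman). Leaving out the 2 rats farthest from the median of the left legs moved r to between -0.90 and 0.29 and between -0.78 and 0.95.

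In the arm labelled VDR-KD none of the 8 genes was called, and 0% of all 14652 genes tested were, by the quasi-likelihood test. The likelihood ratio test and DESeq2 also called 0 members, and at an unadjusted p under 0.05 there were 0 members against 395 of all genes (2.7%). The log2 differences lay between -0.04 for Rpsa and 0.05 for Rps20, with a median of 0.01, and 4 of 8 were below 0. The 95% intervals of the 7 genes other than Rps20 ran at most from -0.33 to 0.31, and that of Rps20 from -0.39 to 0.49. Changes within these intervals were not excluded with 7 rats. The mean over the 8 genes hid rats that moved in opposite directions. It was 0.34 in rat 427 and 0.15 in 428, near 0 in rats 423 (0.05) and 425 (0.04), and -0.11, -0.16 and -0.33 in rats 424, 429 and 426.

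The difference between the arms, tested as an interaction over all 28 muscles, was called for 0 of the 8 genes and for 0% of the 15112 genes. The 8 differences were all below 0, from -0.67 for Rps20 to -0.23 for Rps25, as were 45.4% of all genes and 36.5% of the named genes. At an unadjusted p under 0.05 there were 2, Rpl35 (-0.40 ± 0.15, adjusted p = 0.578 by edgeR's quasi-likelihood test) and Rps20 (-0.67 ± 0.28, 0.613). That threshold was passed by 7.27% of all genes and 32.8% of the named genes. A leg effect that differed between the arms was therefore not shown for any member. This comparison shares the VDR-OE samples with the one that chose the symbols.

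Between the control legs of the arms, which differ in plasmid, hairpin and animals, all 8 genes were higher in the VDR-OE controls by 0.10 (Rps25) to 0.41 (Rps20). None was called, against 0.0277% of the 14458 genes. DESeq2 called 1, Rplp0, among 1028 of these genes. Rplp1 had the smallest adjusted p in edgeR's quasi-likelihood test, 0.137. Rpl35, Rplp0, Rplp1 and Rps20 had an unadjusted p under 0.05, as had 23.3% of all genes and 69.2% of the named genes. Between the treated legs, all 8 were lower in VDR-OE than in VDR-KD by values from -0.26 (Rps20) to -0.01 (Rplp1), with 0 called (0.00681% of the 14674 genes). Of all genes 52.1% were lower there, and of the named genes 67.9%. An unadjusted p under 0.05 was found for 1 of the 8 (Rpl35, -0.15 ± 0.07), against 12.4% of all genes and 11.2% of the named genes. The gap between the controls of the arms was larger in size than the gap between the treated legs for 7 of the 8 genes, as for Rplp0 (0.26 against -0.07) and Rplp1 (0.25 against -0.01). Rps25 was the exception (0.10 against -0.13). Whether the gaps differ in size was not tested, and the share of all genes with the larger gap between the controls was not counted. The median log2 difference of the named genes was also larger in size between the controls (-0.358) than between the treated legs (-0.101). Plasmid and animals cannot be told apart in either comparison, and both share samples with the VDR-OE comparison.

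**Figure D4:**
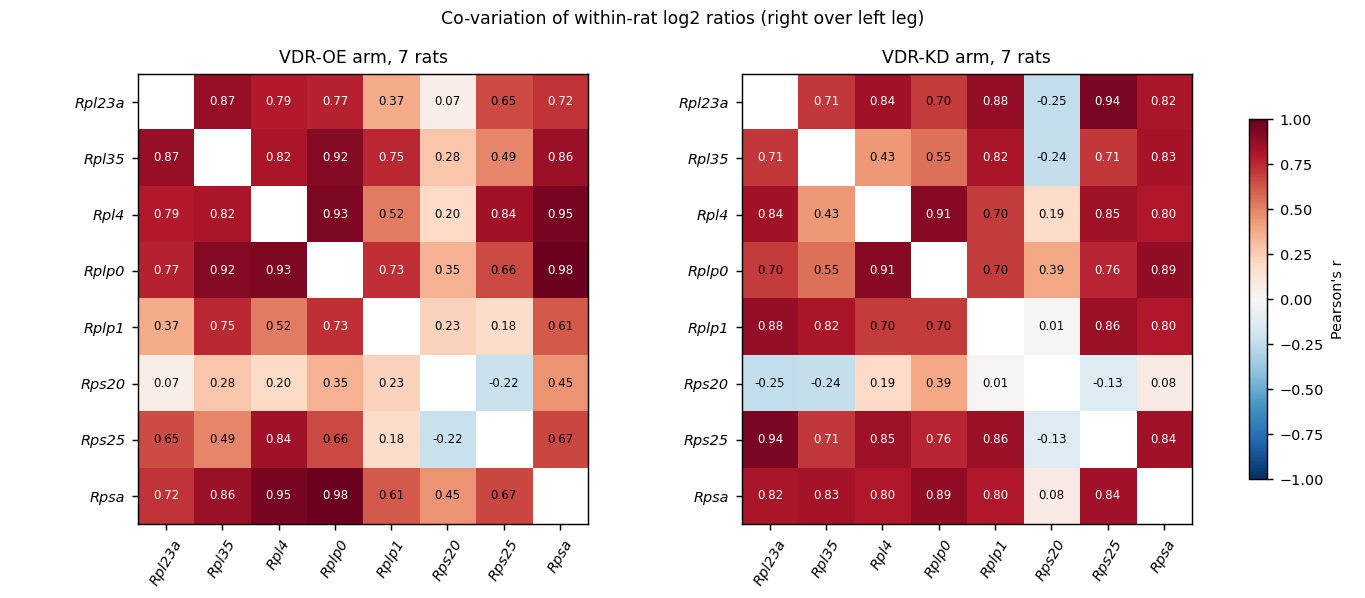
Pearson's r between the within-rat log2 ratios of each pair of the 8 genes (7 rats per arm, colour from -1 to 1). In both arms 7 of the genes form a block of positive values (median 0.75 in the VDR-OE arm and 0.82 in the VDR-KD arm), and Rps20 stands outside it with medians of 0.23 and 0.01.

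The members varied together from rat to rat in both arms. Over the 28 pairs, the median r of the within-rat ratios was 0.66 in the VDR-OE arm and 0.74 in the VDR-KD arm, with medians of rho of 0.62 and 0.70. The median r of a member with the 15104 other genes was 0.05 and 0.01. All ratios of a rat come from the same pair of libraries and share their scale factors. The closest pair of the VDR-OE arm was Rplp0 with Rpsa (r = 0.98, adjusted p = 0.0222, and rho = 0.93, adjusted p = 0.0756, exact permutation, n = 7). In the VDR-KD arm it was Rpl23a with Rps25 (r = 0.94, adjusted p = 0.04, and rho = 0.68, adjusted p = 0.219, exact permutation), which fell to r = 0.39 without the 2 rats farthest from the median and so rested on them. Rplp0 with Rpsa also passed there (r = 0.89, adjusted p = 0.0222, exact permutation, n = 7; rho = 0.96, adjusted p = 0.0756). Over the 56 pairs of both arms, 4 and 6 passed by Pearson's r and 0 by Spearman's rho. Leaving out 2 rats gave median values of 0.66 and 0.52. Rps20, the gene with few reads, had no pair that passed.

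The genes with a symbol whose ratio was most like the mean of the members over the 14 rats, after centring each arm, were LOC300249 (r = 0.876), LOC679823 (0.849), Nup62 (0.841), AABR07026997.1 (0.826) and Utp4 (0.813). The median over all 15112 genes was 0.031, and 49 genes without a symbol here lay above the fifth of these. Nup62, a protein of the nuclear pore, was called lower in VDR-OE by the quasi-likelihood test (-0.32 ± 0.06, adjusted p = 0.0282). So were Utp4 and AABR07026997.1 (adjusted p = 0.0315 and 0.0395). These symbols come from the list ranked by p in that contrast, where 21.5% of the named genes and 3.06% of all genes were called lower. None of the 5 was called in the VDR-KD arm (adjusted p from 0.826 to 0.933). These r values describe libraries that share their scale factors.

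Of 40 ribosome assembly genes, 16 had a symbol. In VDR-OE 9 of these were called lower and 0 higher by the quasi-likelihood test, against 3.06% of all genes and 21.5% of the named genes called lower. The log2 differences of all 16 were below 0 (median -0.34), as were those of 37.1% of the named genes. All 16 have their symbols from the list ranked by p in this contrast, so the count is not independent evidence. Utp4, of the complex that processes the small subunit's RNA, went from 31.3 ± 3.38 to 25.5 ± 1.4 CPM (log2 difference -0.30 ± 0.06, adjusted p = 0.0315). Gnl2, a nucleolar GTPase of large subunit assembly, went from 37 ± 3.49 to 31.4 ± 3.14 CPM (-0.25 ± 0.05, 0.0315). Bysl, needed for the small subunit, went from 34.5 ± 3.12 to 28.2 ± 1.66 CPM (-0.30 ± 0.06, 0.0323). Each was lower in 7 of 7 rats.

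In the VDR-KD arm 0 of the 16 assembly genes were called (median 0.02). Rrp12, which helps export pre-ribosomes, had the smallest p at -0.20 ± 0.10, followed by Ncl (nucleolin) at 0.15 ± 0.09 and Bysl at -0.13 ± 0.08, all with an adjusted p = 0.803. In the difference between the arms 0 of 16 were called and 16 were below 0 (median -0.36), with Ncl (-0.43), Nop56 of the box C/D particle (-0.38) and Gar1 of the box H/ACA particle (-0.61) at the smallest p (adjusted p = 0.471 for each). Between the control legs of the arms 0 of the 16 were called. Gnl3 (nucleostemin), chosen after its values were seen and called lower in VDR-OE, was 47 ± 13.1 CPM in the VDR-OE controls (adjusted p = 0.0903 against the VDR-KD controls by the quasi-likelihood test), against 31.9 ± 1.24, 32.2 ± 2 and 31.3 ± 3.01 CPM in the VDR-OE, VDR-KD control and VDR-KD legs.

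RNA polymerase I transcribes the ribosomal RNA, and 3 of 12 genes of its machinery had a symbol. These symbols too come from the list ranked by p in VDR-OE against control. In that contrast 21.5% of the named genes were called lower, against 3.06% of all genes. Polr1b, its second-largest subunit, fell from 30.9 ± 4.53 to 23.2 ± 1.29 CPM (log2 difference -0.42 ± 0.07, adjusted p = 0.0229) and Rrn3, the initiation factor TIF-IA, from 17.5 ± 1.21 to 14 ± 1.36 CPM (-0.34 ± 0.07, 0.0337). Taf1d was 6.71 ± 2.42 and 4.27 ± 0.541 CPM (-0.60 ± 0.16, 0.0547). None was called in the VDR-KD arm, where Taf1d was at 0.29 and the others at -0.10.

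Of 16 regulators of ribosomal protein synthesis, 3 had a symbol, from the same list ranked by p in VDR-OE against control. As above, 21.5% of the named genes and 3.06% of all genes were called lower there. Eif4ebp1, a repressor of translation that mTOR inactivates, fell from 94 ± 15 to 62.8 ± 7.8 CPM (-0.59 ± 0.10, adjusted p = 0.0212). Larp1, which binds TOP messages, fell from 116 ± 10.4 to 94.5 ± 5.69 CPM (-0.31 ± 0.07, 0.0354). Myc, a transcription factor for ribosome production, had log2 difference -0.77 ± 0.22 and adjusted p = 0.0651, with 31.7 ± 12.2 CPM in the VDR-OE controls against 17.8 ± 2.73, 14.3 ± 1.02 and 17.4 ± 3.91 CPM in the VDR-OE, VDR-KD control and VDR-KD legs. None of the 3 was called in the VDR-KD arm (adjusted p from 0.803 to 0.815) or in the difference between arms (0.471 to 0.743). Of the ribosome of mitochondria, 2 genes had a symbol, also from that list. Mrpl55 was called lower in VDR-OE (-0.32 ± 0.07, adjusted p = 0.0378), and Mrps2 was at -0.27 ± 0.09 (0.0846).

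**Figure D5:**
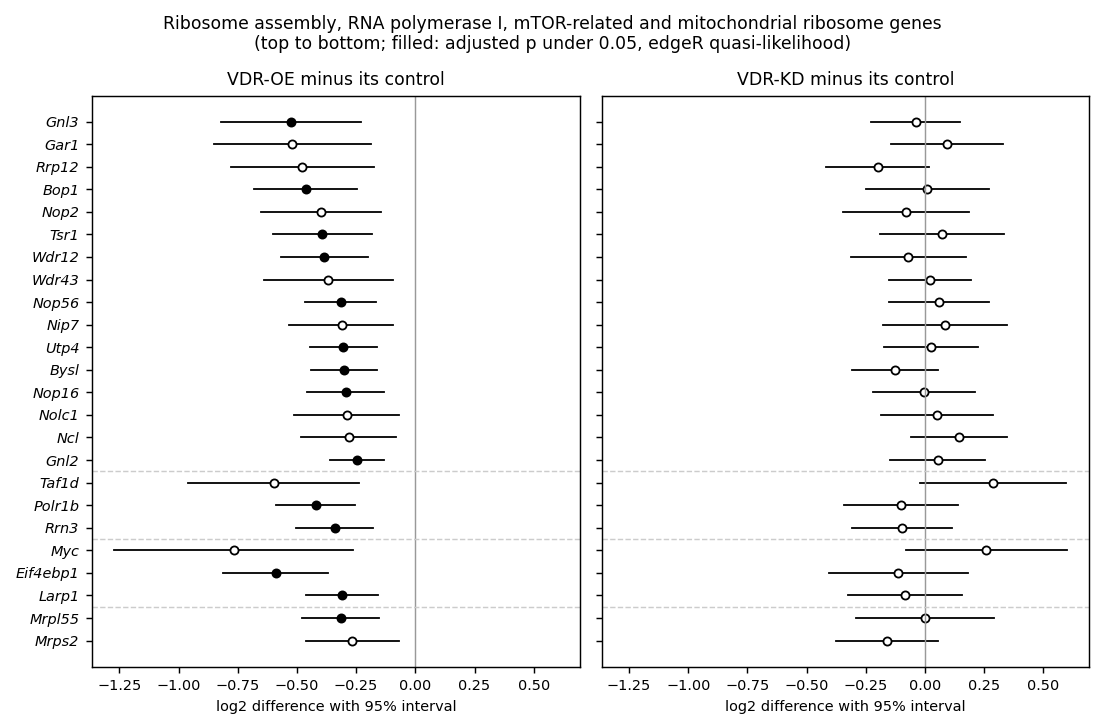
Log2 difference with its 95% interval for 24 genes of ribosome assembly, RNA polymerase I, mTOR-related regulation and the mitochondrial ribosome, treated against control leg in each arm, filled where the adjusted p was under 0.05. All 24 lie below 0 in the VDR-OE arm, as did 37.1% of the named genes, and they scatter around 0 in the VDR-KD arm. Their symbols come from the list ranked by p in VDR-OE against control, so the contrast of the arms is a description.

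Some markers of other cell types were higher in the same VDR-OE muscles. Their symbols come from the list ranked by p in this contrast, of which 28.6% were called higher, against 4.08% of all genes. Of 7 macrophage markers 4 had a symbol, and 3 of these (Mrc1, Csf1r and Cd163) were called higher in VDR-OE by the quasi-likelihood test, while C1qb was not (adjusted p = 0.0758). The summed level of the 4 had a median of 163 CPM (55.6 to 198) in the VDR-OE controls, 277 CPM (154 to 439) in the VDR-OE legs, 250 CPM (151 to 617) in the VDR-KD controls and 524 CPM (151 to 892) in the VDR-KD legs. All 5 fibroblast markers (Col1a1, Col3a1, Dcn, Lum and Pdgfra) were called higher in VDR-OE, with medians of the sum of 2790 CPM (1470 to 5150), 5420 CPM (2190 to 8570), 5200 CPM (2820 to 8790) and 4640 CPM (2580 to 8870) in the same order. Cd2, the one lymphocyte marker with a symbol, was at a log2 difference of 0.998 ± 0.332 (adjusted p = 0.0868). None of these markers was called in the VDR-KD arm. The VDR-OE controls thus had the lowest median of both sums and the highest mean level of the ribosomal protein genes. At the other end, the VDR-OE legs had the lowest mean level of these genes. The macrophage median was highest in the VDR-KD legs instead (524 CPM, against 277 CPM in the VDR-OE legs). The fibroblast median was highest in the VDR-OE legs (5420 CPM), with the VDR-KD controls close to it (5200 CPM). The part of other cell types in the result was not tested.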

How the data were processed

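RNA of 28 muscles was sequenced (TruSeq libraries, HiSeq 4000) and the authors deposited one file of unnormalised gene counts per muscle. According to the methods, reads were trimmed with Trimmomatic and aligned and counted with Rsubread. The labels name version 6.0 of the rat genome with Ensembl release 89, and the submitters' processing notes name edgeR 3.18.1. How reads with several matches were counted is not given in the sources used here.

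Groups came from the VDR status label and pairing from the animal identifier, since both legs belong to one rat. Counts were analysed in edgeR 4.0.16 (R 4.3.3): genes below the CPM that 10 reads make were dropped unless 7 or more samples passed, libraries were scaled by TMM, the rat was a block, and the quasi-likelihood test was used with Benjamini-Hochberg adjustment over all genes and a threshold of 0.05. The study's likelihood ratio test was run as an alternative. The difference between arms kept the rat as a block, and the control legs and the treated legs of the arms were compared unpaired. Log2 levels used a prior count of 0.5. No 2 libraries of a group agreed within sampling noise. Relations over 7 rats used exact permutations.

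Other alternatives were DESeq2 1.42.0, other scalings and filters, fits without the pairing or with all samples, and leaving out each rat. Genes named in the text were the members, Vdr, the 3 genes with the smallest p per list and comparison, and the 5 most alike. Gnl3 and the cell type markers were added after their values were seen. The members and lists were chosen with earlier results of these data known. Gene symbols came from the study's list of 1998 genes. The qRT-PCR targets, paralogues and other TOP genes have no symbol in it and are not analysed here.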

Additional observations from a re-analysis of the deposited data

Results flagged for a closer look

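In each of the 32 sets of 7 muscles (8 genes in 4 groups), the highest and lowest muscle was compared with its nearest neighbour. In 4 of them the gap's share of the whole range was above the 95% critical value of Dixon's test, which chance alone gives in about 1 set in 20. The VDR-OE leg of rat 418 stood highest for Rpl4 (427 CPM) and for Rpsa (410 CPM). That leg had 202 CPM of Vdr, the second lowest of the VDR-OE legs. The VDR-OE control leg of rat 422 stood lowest for Rplp1 (82.9 CPM) and was also the lowest control leg in the mean of the 8 genes. The VDR-KD control leg of rat 426 stood highest for Rps25 (35.2 CPM). What sets these muscles apart was not tested.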

How the results depend on the processing

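For VDR-OE against control, 3 members were called, and RLE scaling and a filter passed in at least 2 samples gave 3 as well. The likelihood ratio test called 6, DESeq2 7, and the fit without the replicate block 5, while library size alone, no filter on low counts, and all 28 samples in one fit with the replicate block kept gave 0 each. Leaving out one rat gave 0 to 6 calls. The cause was not tested. All 8 differences stayed below 0 in every alternative. Over all genes, 1037 were called, against 2262 by the likelihood ratio test, 2767 by DESeq2, 4 with library size alone, 229 with all 28 samples, and 0 to 4768 without one rat. Library size alone moved the median of all genes to 0.114 (VDR-OE) and 0.243 (VDR-KD). Relative to it the members' median was -0.28 and -0.005. In the control legs DESeq2 called 1 member and 1028 of all genes.

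Members of the VDR-KD arm changed sign, none of them called. With library size alone Rplp0 was at 0.213, Rplp1 at 0.196, Rps25 at 0.226 and Rpsa at 0.194, and Rps25 of the control legs at -0.009. Without one rat, the VDR-KD differences ran from -0.044 to 0.113 for Rpl23a, -0.04 to 0.098 for Rpl35, -0.035 to 0.091 for Rpl4, -0.088 to 0.023 for Rplp0, -0.085 to 0.037 for Rplp1, -0.051 to 0.149 for Rps20, -0.052 to 0.074 for Rps25 and -0.089 to 0.016 for Rpsa. Rplp1 between the treated legs ran from -0.054 to 0.044. The replicate block changed no other count of members. Depth limits only Rps20, with 22 to 79 reads per library.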
